A study of Brachypodium distachyon with 9 samples.

Results

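The SAPK genes encode SnRK2 protein kinases, and 9 of them were found among 28454 annotated features by a gene name or synonym of SAPK followed by a number. They are SAPK1, SAPK2 and SAPK4 to SAPK10, and no feature was named SAPK3. Poly(A)-selected RNA from all aboveground tissue of droughted Brachypodium distachyon 21-3, a temperate grass that serves as a laboratory model for cereals, was sequenced. There were 3 genotypes of this background with 3 biological replicates each. The first, gf14h-1, carries a CRISPR/Cas9 mutation of GF14h, which encodes a 14-3-3 protein. The second, hdac19-2b, carries one of HISTONE DEACETYLASE 19 (HDAC19), and the last was wild type. Each mutant is 1 line, homozygous for a lesion in exon 1 that introduces an early stop codon. All plants of the 3 genotypes had 18 days of growth (14 h light, 20 °C; 10 h dark, 18 °C). Water was then withheld for 15 days in a cycle of 16 h light and 8 h dark, and shoots with 5 leaves were harvested 3 h past dawn. The comparisons therefore concern genotype within drought, and the effect of drought itself was not measured.

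SnRK2 kinases relay osmotic stress and abscisic acid signals in plants. Without the hormone, type 2C protein phosphatases (PP2C) hold the abscisic acid-responsive kinases inactive. Hormone-bound receptors capture these phosphatases, and the freed kinases phosphorylate targets such as bZIP transcription factors of the TRAB1/ABF group and guard cell ion channels. 14-3-3 proteins bind phosphorylated client proteins, and histone deacetylases remove acetyl groups from histones. In rice, from which the SAPK names are taken, the family falls into subclass I (SAPK4 to SAPK7), subclass II (SAPK1 to SAPK3) and subclass III (SAPK8 to SAPK10). All rice members are activated by hyperosmotic stress, and those of subclass III are strongly activated by abscisic acid as well. Kinase activity is set largely by phosphorylation, which RNA sequencing does not record.

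The members lie on all 5 chromosomes of the assembly Brachypodium_distachyon_v3.0. Chromosome 1 carries SAPK8 (LOC100827011, 5343336 to 5350392, minus strand), SAPK10 (LOC100830593, 11669437 to 11671432), SAPK2 (LOC100823438, 17152403 to 17157166) and SAPK1 (LOC106865379, 60321372 to 60326452). Chromosome 2 carries SAPK4 (LOC100828370, 54435742 to 54440259), chromosome 3 SAPK6 (LOC100831269, 47271079 to 47275121) and chromosome 4 SAPK9 (LOC100839347, 2562941 to 2565140). SAPK7 (LOC100831909, 13660063 to 13664499) and SAPK5 (LOC100843625, 28376112 to 28377489) lie on chromosome 5. All but SAPK8 are on the plus strand. The deposited annotation describes the SAPK6 locus as SAPK7-like and the SAPK1 locus as an abscisic acid-inducible protein kinase, so the names do not settle which rice gene each locus corresponds to. No other gene of the RefSeq table overlaps a member. Of the 81 deposited member values, 79 were whole counts to within 0.001 and the largest distance from a whole count was 0.03.

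Library totals ran from 3302835 counts in gf14h-1 replicate 3 to 36632994 in wild type replicate 3, with the other 7 between 11135028 and 17653802. The members had between 24 and 4103 counts per library, against a floor of 3 counts, and all 9 passed the expression filter. Transcripts of the targeted genes GF14h and HDAC19 are not analysed here, because no source used here pairs them with a locus. Chloroplast rbcL, the large subunit of the carbon-fixing enzyme Rubisco, stood at 2388 to 6307 CPM over the 9 libraries. The other photosynthesis genes looked up were much lower, psbA at 54.9 to 142 CPM and psaA at 9.88 to 32.0 CPM. CPM expresses a count relative to the TMM-scaled total of its library. In bulk tissue such as this, fewer cells of a type and less RNA per cell cannot be told apart.

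The order of SAPK transcript levels in droughted wild type was examined per kilobase of genomic span, introns included, since transcript lengths are not used here. SAPK5 stood first at 51.5 ± 8.32 CPM per kb of span (SD, n = 3), with 61.1, 46.9 and 46.4 in replicates 1, 2 and 3. SAPK2 followed at 22.0 ± 4.35, SAPK4 at 16.4 ± 3.05 and SAPK9 at 14.5 ± 1.04 CPM per kb of span. SAPK7, SAPK6 and SAPK8 were close together, at 10.9 ± 1.14, 10.3 ± 1.25 and 9.64 ± 1.48, and SAPK10 had 7.51 ± 1.38 CPM per kb of span. SAPK1 stood last at 3.27 ± 0.669 CPM per kb of span. Levels per kb of span differed widely within the family, with SAPK5 at the top and SAPK1 at the bottom in all 3 wild type libraries.

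Of the 8 neighbouring pairs in that order, wild type ranges overlapped in 5, and only SAPK5 over SAPK2, SAPK9 over SAPK7 and SAPK10 over SAPK1 had none. The same 3 steps differed over all 9 libraries in a two-sided exact sign-flip permutation test of the log2 level per kb. Each gene's span enters that test as a fixed offset. The 9 libraries include the wild type ones that set the order, so the p-values are no independent support for it. The mean log2 difference per kb was 1.38 for SAPK5 over SAPK2 (9 of 9 libraries, exact permutation p = 0.0039, the smallest that 9 libraries can give, Benjamini-Hochberg adjusted p = 0.016). It was 0.43 for SAPK9 over SAPK7 (9 of 9 libraries, exact permutation, adjusted p = 0.016) and 1.32 for SAPK10 over SAPK1 (8 of 9 libraries, exact permutation, adjusted p = 0.021). For the other 5 steps the order was not resolved, with exact permutation adjusted p from 0.078 to 0.769. All 3 steps depended on the division by span, which runs from 1378 bases in SAPK5 to 7057 bases in SAPK8. Without it the wild type means ran the other way in each, at 70.9 CPM for SAPK5 and 105 CPM for SAPK2, 31.9 CPM for SAPK9 and 48.5 CPM for SAPK7, and 15.0 CPM for SAPK10 and 16.6 CPM for SAPK1. SAPK2 then stood first and SAPK10 last. The order per kb thus describes levels per span and does not rank transcript levels per transcript length.

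**Figure D1:**
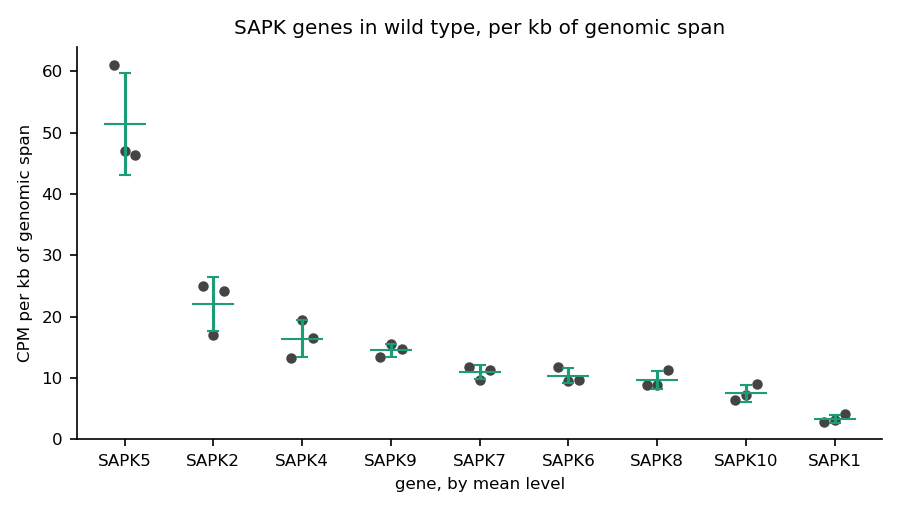
Level of each SAPK gene in the 3 wild type libraries, in TMM-scaled CPM per kilobase of genomic span (y axis), with genes ordered by mean level (x axis). Points are libraries and green bars are the mean ± SD; SAPK5 lies at 46.4 to 61.1 and SAPK1 at 2.74 to 4.02, and most neighbours in between overlap.

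Within a gene, levels can be compared across genotypes without regard to length, and they are given below in CPM. Subclass I holds SAPK4, SAPK5, SAPK6 and SAPK7. SAPK6 had 70.3, 58.7 and 48.7 CPM in gf14h-1 replicates 1, 2 and 3, 38.6, 37.1 and 42.4 CPM in hdac19-2b, and 47.6, 38.6 and 39.2 CPM in wild type. All 3 gf14h-1 libraries stood above every library of the other genotypes, although gf14h-1 replicate 3 exceeded wild type replicate 1 only slightly. The log2 fold change of SAPK6 in gf14h-1 against wild type was 0.51 (SE 0.20, 95% interval 0.061 to 0.96), and its adjusted p was 0.580 (edgeR's quasi-likelihood test, Benjamini-Hochberg over all features). In hdac19-2b against wild type it was -0.087 (SE 0.20), with an edgeR adjusted p of 1.00, and the libraries overlapped.

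SAPK7 varied least among the members. It had 60.7, 64.1 and 55.7 CPM in gf14h-1, 45.7, 44.2 and 45.0 CPM in hdac19-2b, and 52.4, 42.8 and 50.4 CPM in wild type. The gf14h-1 libraries again lay above all others, while hdac19-2b lay within the wild type range. Log2 fold changes of SAPK7 were 0.31 (SE 0.18) in gf14h-1 and -0.11 (SE 0.18) in hdac19-2b, with edgeR adjusted p of 0.784 and 1.00. 

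SAPK5 showed the opposite pattern, with hdac19-2b as the genotype that stood apart. It had 67.9, 53.7 and 103 CPM in gf14h-1, 45.8, 43.9 and 38.0 CPM in hdac19-2b, and 84.1, 64.7 and 63.9 CPM in wild type. Every hdac19-2b library lay below every library of the other 2 genotypes. The log2 fold change of SAPK5 in hdac19-2b against wild type was -0.74 (SE 0.25, 95% interval -1.29 to -0.18), or 0.600 times the wild type level, with an edgeR adjusted p of 0.416. In gf14h-1 it was 0.068 (SE 0.25, edgeR adjusted p = 0.988). That estimate rests on the shallow replicate 3, which had the highest SAPK5 of all libraries, and was -0.22 without it.

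SAPK4 had 72.8, 42.4 and 40.2 CPM in gf14h-1, 54.6, 44.4 and 59.1 CPM in hdac19-2b, and 60.0, 87.6 and 74.7 CPM in wild type. The hdac19-2b libraries lay below the wild type range, replicate 3 only by little, at 59.1 CPM against 60.0 CPM in wild type replicate 1. Replicates 2 and 3 of gf14h-1 lay below both other genotypes, but gf14h-1 replicate 1 was inside the wild type range. Log2 fold changes of SAPK4 were -0.51 (SE 0.27) in gf14h-1 and -0.49 (SE 0.26) in hdac19-2b, with edgeR adjusted p of 0.744 and 0.851. Without gf14h-1 replicate 1 the first was -0.84.

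Subclass II holds SAPK1 and SAPK2, whose rice counterparts also respond to osmotic stress. SAPK2 had 62.8, 87.6 and 84.0 CPM in gf14h-1, 63.6, 58.1 and 69.3 CPM in hdac19-2b, and 119, 81.1 and 115 CPM in wild type. All 3 hdac19-2b libraries lay below all 3 wild type libraries, and the gf14h-1 libraries overlapped both. The log2 fold change of SAPK2 in hdac19-2b against wild type was -0.72 (SE 0.22, 95% interval -1.21 to -0.24), or 0.607 times the wild type level. It had the smallest unadjusted p among the members against wild type, 0.0074 in edgeR's quasi-likelihood test, but ranked 579 of 23898 features, and its adjusted p was 0.305. In gf14h-1 the log2 fold change was -0.43 (SE 0.22, edgeR adjusted p = 0.739).

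SAPK1 had 14.3, 20.1 and 22.6 CPM in gf14h-1, 13.0, 14.9 and 12.2 CPM in hdac19-2b, and 13.9, 15.4 and 20.4 CPM in wild type. The genotypes overlapped throughout. Log2 fold changes of SAPK1 were 0.18 (SE 0.26) in gf14h-1 and -0.31 (SE 0.26) in hdac19-2b, with edgeR adjusted p of 0.963 and 1.00.

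Subclass III holds SAPK8, SAPK9 and SAPK10, the kinases that abscisic acid activates most strongly in rice. SAPK9 had 34.9, 41.9 and 45.9 CPM in gf14h-1, 32.6, 31.8 and 26.7 CPM in hdac19-2b, and 29.5, 34.1 and 32.2 CPM in wild type. The gf14h-1 libraries lay above all others, replicate 1 by little. The log2 fold change of SAPK9 was 0.35 (SE 0.20) in gf14h-1 and -0.071 (SE 0.20) in hdac19-2b, with edgeR adjusted p of 0.781 and 1.00.

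SAPK8 had 87.7, 94.5 and 68.1 CPM in gf14h-1, 72.5, 63.6 and 58.0 CPM in hdac19-2b, and 62.0, 62.0 and 80.1 CPM in wild type. The highest values were in gf14h-1 replicates 1 and 2, and replicate 3 lay inside the wild type range. Log2 fold changes of SAPK8 were 0.30 (SE 0.21) in gf14h-1 and -0.073 (SE 0.21) in hdac19-2b, with edgeR adjusted p of 0.856 and 1.00.

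SAPK10 was the least steady member. It had 21.6, 19.1 and 8.47 CPM in gf14h-1, 12.9, 23.4 and 16.8 CPM in hdac19-2b, and 12.7, 14.2 and 18.0 CPM in wild type. The low value in gf14h-1 replicate 3 came from 24 counts, with an exact 95% Poisson interval of 5.42 to 12.6 CPM that covers counting error only and does not reach the other 2 libraries of that mutant. Log2 fold changes of SAPK10 were 0.16 (SE 0.35) in gf14h-1 and 0.24 (SE 0.35) in hdac19-2b, with edgeR adjusted p of 0.977 and 1.00. 

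**Figure D2:**
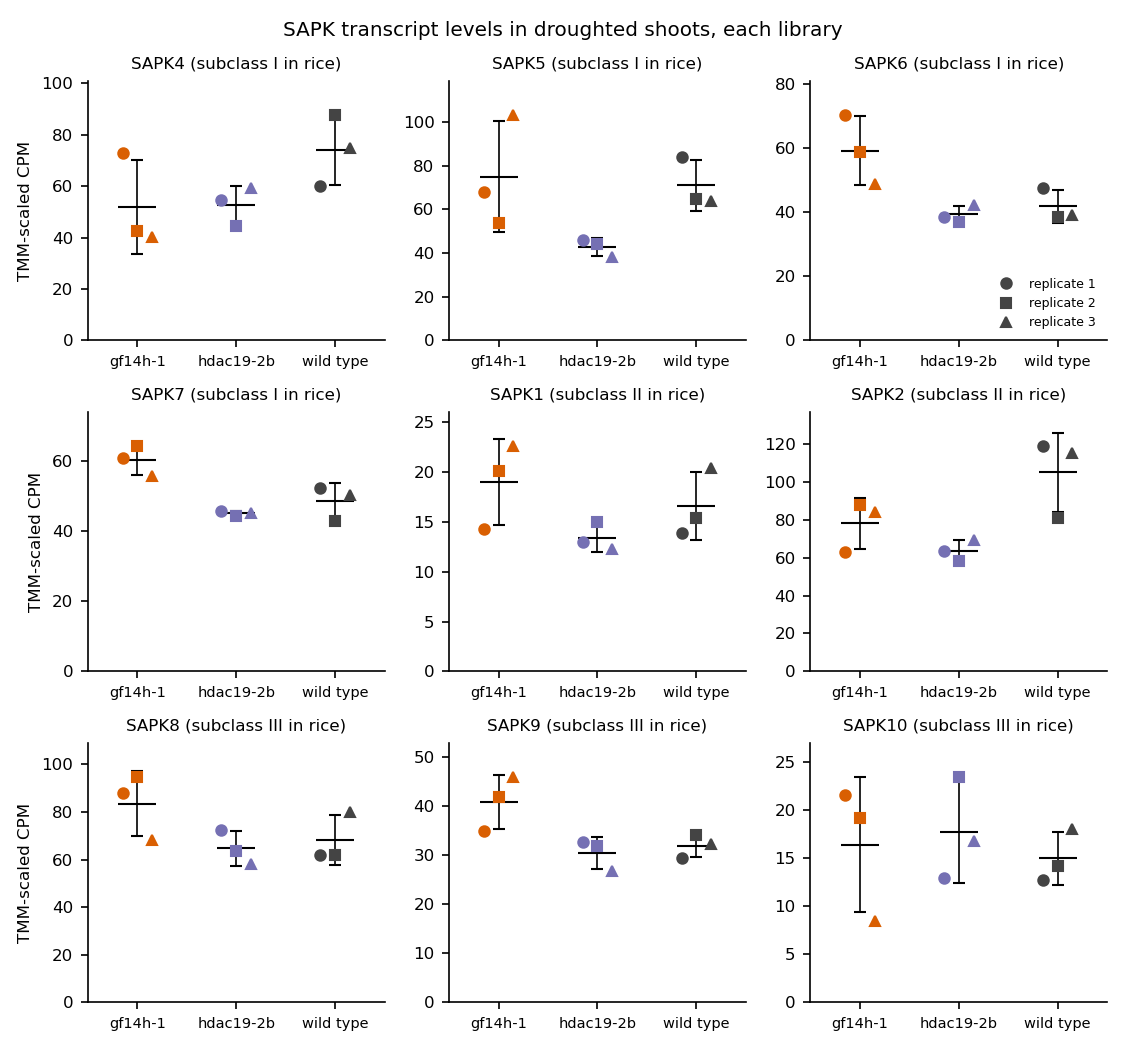
TMM-scaled CPM (y axis, from 0) of the 9 SAPK genes in gf14h-1, hdac19-2b and wild type (x axis), grouped by rice subclass. Symbols are replicates 1 to 3 and black bars the mean ± SD; the gf14h-1 points lie above all others for SAPK6, SAPK7 and SAPK9, and the hdac19-2b points below all others for SAPK5.

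No SAPK gene passed the threshold in any comparison. In gf14h-1 against wild type, 0 of 9 members had an adjusted p under 0.05 in edgeR's quasi-likelihood test, where 0.146% of all 23898 tested features did, 0.067% higher and 0.0795% lower. At an unadjusted p under 0.05 there was 1 member, SAPK6, against 7.56% of all features, and DESeq2 and limma-trend also called 0. In hdac19-2b against wild type, 0 of 9 members passed in edgeR's test, against 0.272% of all features, 0.0795% higher and 0.192% lower. There 2 members, SAPK2 and SAPK5, had an unadjusted p under 0.05, against 7.19% of all features, and DESeq2 and limma-trend called 0. The DESeq2 adjusted p of SAPK2 in hdac19-2b was 0.056, the smallest of any member under any setting, and over its settings the adjusted p ran up to 0.938.

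Libraries of gf14h-1 and wild type did not overlap for 3 members, SAPK6, SAPK7 and SAPK9, all higher in gf14h-1. Among all features 11.9% did not overlap, 5.18% being higher and 6.68% lower in the mutant. Libraries of hdac19-2b and wild type did not overlap for SAPK2, SAPK4 and SAPK5, all lower in hdac19-2b, against 16.8% of all features without overlap, of which 8.34% were higher and 8.48% lower. The median log2 fold change of the 9 members was 0.18 in gf14h-1 and -0.11 in hdac19-2b, beside 25th and 75th percentiles over all features of -0.30 and 0.28 in gf14h-1 and -0.24 and 0.27 in hdac19-2b. In gf14h-1, 7 members had a positive estimate and 2 a negative one. In hdac19-2b, 1 had a positive estimate and 8 a negative one. The mutants were set against the same 3 wild type libraries.

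The 95% intervals give, for 1 gene and comparison at a time, a range for the size of the difference. They are not adjusted for the number of comparisons. No member had an estimate beyond 2-fold against wild type. In 13 of the 18 comparisons with wild type the whole 95% interval lay within 2-fold in either direction. The intervals that reached past 2-fold were those of SAPK4 in both mutants, SAPK2, SAPK5 and SAPK10 in hdac19-2b. SAPK7 had the narrowest, from 0.946 to 1.63 times wild type in gf14h-1 and from 0.707 to 1.22 times in hdac19-2b.

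Setting gf14h-1 directly against hdac19-2b asks whether the mutants differed from each other. The log2 difference was 0.80 (SE 0.25, 95% interval 0.24 to 1.36) for SAPK5, 0.60 (SE 0.20, 0.15 to 1.04) for SAPK6 and 0.42 (SE 0.18, 0.029 to 0.82) for SAPK7. The edgeR adjusted p were 0.414, 0.441 and 0.516, so 0 of 9 members passed. Over all features 0.0167% did, 0.00418% higher and 0.0126% lower in gf14h-1. These 3 were the members with an unadjusted p under 0.05, against 9.03% of all features, and DESeq2 and limma-trend called 0. With SAPK9, at 0.42 (SE 0.20, edgeR adjusted p = 0.572), they were also the 4 members without overlap between the mutants, all higher in gf14h-1. Among all features 14% did not overlap, 6.23% being higher and 7.81% lower in gf14h-1. The median over the 9 members was 0.42, beside -0.0018 over all features, whose 25th and 75th percentiles were -0.33 and 0.32. SAPK4 and SAPK10 were nearly level between the mutants, at -0.016 and -0.075, with 95% intervals of -0.60 to 0.57 and -0.85 to 0.70. Without gf14h-1 replicate 3, which had the highest SAPK5, the SAPK5 difference was 0.52.

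**Figure D3:**
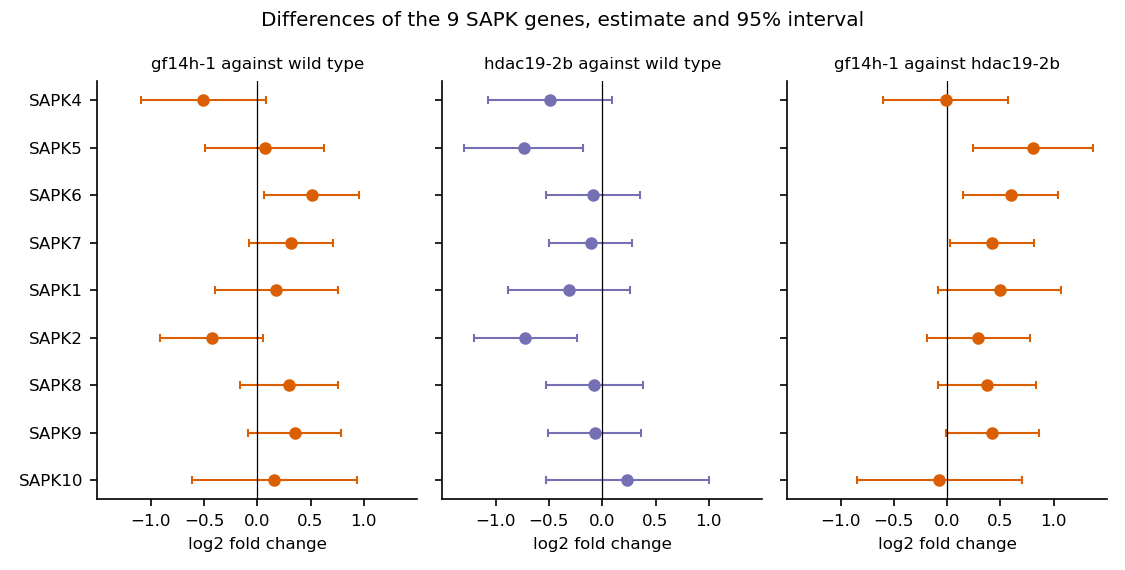
Log2 fold change (x axis) of the 9 SAPK genes (y axis) in gf14h-1 against wild type, hdac19-2b against wild type and gf14h-1 against hdac19-2b. Points are estimates from the fit over all features and lines their 95% intervals; those above 0 in full are SAPK6 in the first panel and SAPK5, SAPK6 and SAPK7 in the last, those below 0 in full are SAPK5 and SAPK2 in the middle panel, and none passed after adjustment.

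The summed level of the 9 members separated hdac19-2b from the other genotypes. The sum was chosen after the values were seen and is described without a test. It was 493, 482 and 477 CPM in gf14h-1 replicates 1, 2 and 3, 379, 361 and 368 CPM in hdac19-2b, and 481, 440 and 494 CPM in wild type. The hdac19-2b libraries lay below all others, and those of gf14h-1 lay within the wild type range. Of all single features, 16.8% did not overlap between hdac19-2b and wild type, 8.48% being lower in hdac19-2b. No such share was computed for sums of genes. The sum includes SAPK2, SAPK4 and SAPK5, which by themselves did not overlap, so its separation is not a separate result. The mean was 484 ± 8.38 CPM in gf14h-1, 369 ± 9.15 CPM in hdac19-2b and 472 ± 27.9 CPM in wild type (SD, n = 3 each). The hdac19-2b mean was 0.783 times that of wild type, and it was 0.783 times with the authors' median-ratio values as well. Leaving out SAPK2 and SAPK5, the sum was 270, 259 and 260 CPM in hdac19-2b and 278, 295 and 315 CPM in wild type, a ratio of 0.889, still without overlap. That reduced sum still held SAPK4, which by itself did not overlap between hdac19-2b and wild type. It therefore does not show a lower level across the remaining members.

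The subclasses did not contribute alike to that sum. Subclass I summed to 246 ± 26.4 CPM in gf14h-1, 180 ± 8.66 CPM in hdac19-2b and 235 ± 8.11 CPM in wild type (SD, n = 3). Subclass II summed to 97.1 ± 17.4 CPM in gf14h-1, 77.1 ± 4.30 CPM in hdac19-2b and 122 ± 21.7 CPM in wild type. The members named for rice subclass III summed to 141 ± 16.8 CPM in gf14h-1, 113 ± 9.75 CPM in hdac19-2b and 115 ± 13.7 CPM in wild type. In hdac19-2b the sums of subclasses I and II were lower, while subclass III stood at 0.981 times the wild type mean. By gene, edgeR's estimates were 0.712 and 0.600 times wild type for SAPK4 and SAPK5, but 0.942 and 0.927 for SAPK6 and SAPK7. SAPK2 stood at 0.607 times, and SAPK1, at 0.805 times, overlapped wild type. In subclass III, SAPK8, SAPK9 and SAPK10 stood at 0.950, 0.952 and 1.18 times. The lower sum thus lay mostly in single genes, SAPK2, SAPK4 and SAPK5, rather than in whole subclasses.

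**Figure D4:**
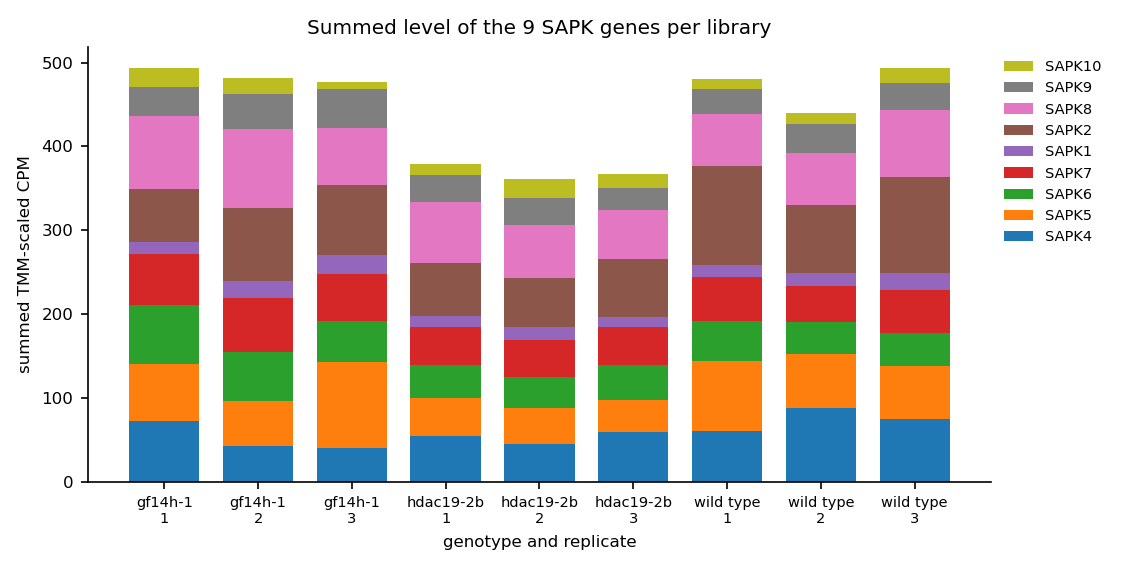
Summed TMM-scaled CPM of the 9 SAPK genes (y axis, from 0) in each library (x axis, genotype and replicate), stacked by gene. The hdac19-2b bars reach 361 to 379, below the 477 to 493 of gf14h-1 and the 440 to 494 of wild type.

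Ratios between members within a library do not depend on how libraries are scaled. The ratio of SAPK2 to SAPK6 counts, also chosen after the values were seen, was 0.894 to 1.72 in gf14h-1, 1.57 to 1.65 in hdac19-2b and 2.10 to 2.93 in wild type. Both mutants lay below wild type in all libraries. In gf14h-1 that came with higher SAPK6 and a lower mean of SAPK2, whose libraries overlapped wild type. In hdac19-2b it came with lower SAPK2 alone, SAPK6 being near the wild type level. Against wild type, SAPK6 had the smallest unadjusted edgeR p of the members in gf14h-1, and SAPK2 in hdac19-2b. The separation of this ratio therefore follows in part from the choice of genes. How often other pairs of genes separate in this way was not computed. The ratio of SAPK6 to SAPK5 was 0.473 to 1.09 in gf14h-1, 0.844 to 1.12 in hdac19-2b and 0.566 to 0.614 in wild type. All hdac19-2b libraries lay above wild type, as did gf14h-1 replicates 1 and 2, at 1.04 and 1.09. The shallow gf14h-1 replicate 3, at 0.473, lay below wild type. SAPK5 by itself did not overlap between hdac19-2b and wild type, so the separation of this ratio in hdac19-2b is not a separate result.

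Replicates varied less in the median member than in the median feature. The SD of log2 CPM within a genotype had a median of 0.24 over the 9 members, from 0.11 for SAPK7 to 0.51 for SAPK10. Its median was 0.34 over the 8349 features with mean CPM in the members' range and 0.47 over all tested features.

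Members were compared pair by pair over the 9 libraries, in 36 pairs. SAPK6 and SAPK7 moved together most closely, with Pearson's r = 0.89 (exact permutation p = 0.0014, adjusted p = 0.0497) and Spearman's rho = 0.92 (exact permutation p = 0.0013, adjusted p = 0.047). Without the 2 libraries farthest from the SAPK6 median, r was 0.82. Without gf14h-1 replicate 3, r was 0.90 over 8 libraries but its exact permutation adjusted p was 0.102. With genotype means removed, r was 0.58, for which no p was computed. The permutations exchanged libraries across genotypes, so their p also takes in the shift of both genes between genotypes. At an unadjusted exact permutation p under 0.05 there were 2 other pairs. SAPK1 and SAPK9 had r = 0.80 and rho = 0.67 (exact permutation adjusted p = 0.160 and 0.530), and SAPK7 and SAPK8 had r = 0.78 and rho = 0.67 (0.179 and 0.530). Without the 2 libraries farthest from the median of the first-named gene, these were r = 0.89 and r = 0.35. 

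Apart from the members, 152 tested features carried a name or description, and among them the 3 most like SAPK2 in log2 CPM over the 9 libraries were MPK3, CBL2 and CBF7. MPK3 is a MAP kinase of a family that relays stress signals, with r = 0.90 and rho = 0.90 (exact permutation p = 7.6e-04 and 0.0020). CBL2 is a calcineurin B-like calcium sensor, with r = 0.90 and rho = 0.93 (exact permutation p = 0.0013 and 7.5e-04). Both r had an exact permutation adjusted p of 0.069 over the 152 features, so neither passed. Without the 2 libraries farthest from the SAPK2 median, r was 0.76 for MPK3 and 0.93 for CBL2. With genotype means removed, r was 0.70 and 0.89.

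CBL2 was picked for its likeness to SAPK2 over these same 9 libraries, so a shared pattern within genotypes is no independent support. CBL2 had 52.6, 78.2 and 75.5 CPM in gf14h-1, 61.4, 54.5 and 62.5 CPM in hdac19-2b, and 75.9, 65.8 and 84.4 CPM in wild type. Its lowest library in each genotype was that of SAPK2. The highest wild type library was replicate 3 for CBL2 and replicate 1 for SAPK2. The C-repeat binding factor CBF7, which belongs to a family that activates cold and dehydration genes, had 2.79 to 6.03 CPM in gf14h-1, 1.21 to 2.83 CPM in hdac19-2b and 12.2 to 65.6 CPM in wild type. Its wild type libraries stood apart from the mutants, so no correlation over all libraries is given. MPK3 had 34.2, 44.7 and 66.0 CPM in gf14h-1, 37.7, 21.3 and 21.9 CPM in hdac19-2b, and 170, 48.6 and 83.3 CPM in wild type. All hdac19-2b libraries lay below wild type, at a log2 fold change of -1.90 (SE 0.44, edgeR adjusted p = 0.133; DESeq2 called it). In wild type, SAPK2, MPK3 and CBF7 were each highest in replicate 1 and lowest in replicate 2. MPK3 and CBF7 were picked for likeness to SAPK2 over libraries that include these, which favours a shared order.

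The 3 features most like SAPK5 came from MADS-box transcription factor genes, a family known for control of flowering and organ identity. They were a non-coding transcript of the AGL14-like gene LOC100824579 (r = 0.85, rho = 0.88), the AGL62-like gene LOC100832754 (r = 0.82, rho = 0.80) and the main feature of LOC100824579 (r = 0.78, rho = 0.68). LOC100832754 was scarce, at 0.422 to 1.10 CPM in hdac19-2b and 1.82 to 2.07 CPM in wild type. In gf14h-1 it had 0.537 and 0.787 CPM in replicates 1 and 2, and 7.76 CPM in the shallow replicate 3. Exact permutation p of r were 0.0028, 0.0053 and 0.015, with adjusted p over the 152 features of 0.140, 0.162 and 0.292, so none passed. Those of rho were 0.0031, 0.014 and 0.050. Without the 2 libraries farthest from the SAPK5 median, r was 0.75, 0.60 and 0.48. With genotype means removed, r was 0.55, 0.80 and 0.60. Without gf14h-1 replicate 3, which had the highest SAPK5, r was 0.83, 0.68 and 0.66.

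**Figure D5:**
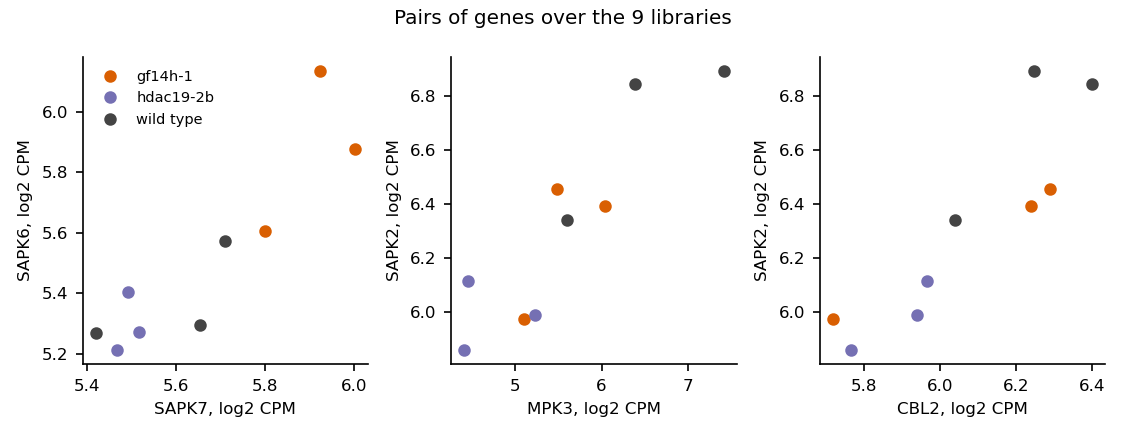
Log2 CPM of SAPK6 against SAPK7, SAPK2 against MPK3, and SAPK2 against CBL2 (first-named gene on the y axis), each point being 1 of 9 libraries coloured by genotype. Pearson's r is 0.89, 0.90 and 0.90; the gf14h-1 points take the upper right for SAPK6 and SAPK7, and 2 of 3 wild type points do so for SAPK2.

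Around the SAPK kinases, 21 features of abscisic acid and stress signalling carried a name, and 20 were tested. The tested features comprised 3 PP2C phosphatases, 2 features of the bZIP gene ABF2 (described as TRAB1), 2 C-repeat binding factors, 3 CIPK kinases and 10 MAP kinase cascade genes. Hormone receptors, ion channels, abscisic acid enzymes and dehydrins had no named feature. In gf14h-1, 0 of 20 passed edgeR's quasi-likelihood test in either direction, where 0.146% of all features did. At an unadjusted p under 0.05 there were 5, against 7.56% of all features. DESeq2 called 3 of the 20 (CBF5, CBF7 and CIPK14) and 351 features in all, and limma-trend called 0. In hdac19-2b, edgeR called 1 higher and 1 lower, against 0.0795% of all features higher and 0.192% lower. There 4 had an unadjusted p under 0.05, against 7.19% of all features. DESeq2 called 4 of the 20 (CBF5, CBF7, CIPK14 and MPK3) and 563 features in all, and limma-trend called 2 (CBF7 and CIPK14). CIPK14, a kinase that acts with calcineurin B-like sensors, stood at 99.5 ± 6.18 CPM in hdac19-2b and 43.2 ± 5.75 CPM in wild type (SD, n = 3), a log2 fold change of 1.20 with an edgeR adjusted p of 0.043. In gf14h-1 it stood at 95.9 ± 17.6 CPM, 2.22 times wild type, which did not pass (edgeR adjusted p = 0.076). CBF7 had a log2 fold change of -4.03 with an edgeR adjusted p of 0.026. The CIPK14 call was lost on leaving out any 1 of the 6 hdac19-2b or wild type libraries (edgeR adjusted p from 0.101 to 0.229, log2 fold change from 1.13 to 1.30). The CBF7 call was lost on leaving out any 1 of the 3 hdac19-2b libraries, wild type replicate 1 or wild type replicate 3 (edgeR adjusted p from 0.074 to 0.182, log2 fold change from -4.35 to -3.11). Between the mutants edgeR, DESeq2 and limma-trend each called 0 of 20, and edgeR had 0 at an unadjusted p under 0.05.

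None of the phosphatases, the class that restrains SnRK2 kinases, or of the features of ABF2, a kind of factor that these kinases phosphorylate, passed in either mutant. PP2C50 stood at 30.3 ± 4.16 CPM in gf14h-1, 23.1 ± 3.23 CPM in hdac19-2b and 31.8 ± 5.41 CPM in wild type (SD, n = 3), with log2 fold changes of -0.075 and -0.46. PP2C30 had 17.4 ± 4.31, 12.2 ± 3.35 and 11.8 ± 3.72 CPM in gf14h-1, hdac19-2b and wild type, with 0.56 and 0.053. PP2C53, the least abundant, had 1.97 ± 1.70 CPM in gf14h-1, 2.05 ± 0.999 CPM in hdac19-2b and 2.44 ± 0.536 CPM in wild type. The coding feature of ABF2 had 16.0 ± 5.73 CPM in gf14h-1, 11.95 ± 2.36 CPM in hdac19-2b and 12.3 ± 1.91 CPM in wild type, with log2 fold changes of 0.35 and -0.041. The smallest adjusted p of these 4 genes was 0.766 (edgeR), for PP2C50 in hdac19-2b, where its 95% interval was -0.95 to 0.034.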

How the data were processed

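The authors deposited estimated counts per feature for 9 libraries, of which 69.1% to 83.2% per library were whole to within 0.001; they were rounded to whole numbers, although raw counts had been assumed when the tests were chosen. The authors also deposited an annotated signal table, per its header and the labels a median-ratio normalization. Multiplying it by 1 size factor per library recovered whole reads (tolerance 0.1) in 99.93% to 100% of values, and a count test on these reads called the same numbers of features, 35, 65 and 4. Tools listed in the submitters' processing notes are HISAT2, DESeq2, Partek and FastQC 0.11.9. The counting program, strand setting and genome build were not given in the sources. Coordinates and spans are from RefSeq's table of Brachypodium_distachyon_v3.0, and matched all 9 members.

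Differences were tested with edgeR 4.0.16 (R 4.3.3), as a quasi-likelihood fit of genotype to all 9 libraries with TMM scaling and the default expression filter (23898 features tested), Benjamini-Hochberg adjustment over all features and a threshold of 0.05. Each SE was derived as log2 fold change over the root of the F statistic. The fit was tested on simulated data. DESeq2 1.42.0, limma 3.58.1 and the settings listed at the end were alternatives. Correlations and sign-flip tests used all orders or signs (scipy 1.17.1, numpy 2.4.6). Named genes were all members, a list of stress signalling genes, and the 3 annotated features most correlated with the member highest per kb in wild type and with that of the smallest p. Members, lists and tests were chosen with earlier results of these data known. Replicate numbers did not pair libraries. The p-values of genotype comparisons rest on the spread between these plants and, with 1 line per mutant, do not cover spread between lines. Sign-flip p-values concern the difference between 2 genes within a library. The p-values of correlations also take in differences between genotypes.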

Additional observations from a re-analysis of the deposited data

How the results depend on the processing

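None of the 9 members passed in any of the 3 comparisons under any of the 17 alternatives (51 counts of 0). These were median-ratio size factors, no filter, DESeq2, limma-trend, the replicate block, recovered reads, counts summed per gene, only the 6 libraries compared, and each library left out. Of 459 recomputed log2 fold changes of members, 15 changed sign, in 8 of 27 results. SAPK4 between the mutants was 0.0060 with median-ratio size factors and 0.0058 with DESeq2, and -0.35 to 0.14 over single libraries left out. Over those, SAPK10 ran from -0.073 to 0.44 in gf14h-1, from -0.014 to 0.42 in hdac19-2b and from -0.31 to 0.21 between the mutants, and SAPK5 in gf14h-1 from -0.22 to 0.26. In hdac19-2b, SAPK6 ran from -0.14 to 0.0058, SAPK8 from -0.16 to 0.061 and SAPK9 from -0.13 to 0.013. The cause was not tested.

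Counts over all features moved more, from 35 (gf14h-1), 65 (hdac19-2b) and 4 (between the mutants). DESeq2 gave 351, 563 and 278. The replicate block gave 4, 12 and 2, and only the 6 libraries 4, 235 and 1. Counts summed per gene gave 138 in hdac19-2b. Leaving out single libraries gave 4 (without wild type replicate 3) to 51 (without gf14h-1 replicate 3), 2 (without hdac19-2b replicate 1) to 190 (without gf14h-1 replicate 3) and 2 to 7 (without gf14h-1 replicate 2). CIPK14 and CBF7, tried after seeing the data, passed in 10 and 11 of the 17 alternatives. With the replicate block their edgeR adjusted p were 0.165 and 0.065. Same-numbered libraries did not deviate together (r from -0.14 to 0.020), and 0 of 9 libraries correlated best with their own number, so the replicate block pairs libraries that share only a number. Without the shallowest library 0 pairs of members passed, where 1 had. Dividing by no length, also added after seeing the data, moved all 9 shares of the wild type level by more than 1 SD. Coding lengths could not be used because no table held them. No group had enough samples for a check of single outlying libraries. In the shallowest library, gf14h-1 replicate 3, 3 counts equal 0.908 CPM, which limits SAPK10 most.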
